A study of Mus musculus with 6 samples.

Results

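A microRNA (miRNA) hairpin yields a short duplex, and each strand of it, named 5p or 3p after its side of the hairpin, can be kept as a mature miRNA. The arm balance of 4 hairpins, miR-151, miR-423, miR-872 and miR-328, was described here in extracellular vesicles (EVs) of mouse hepatocytes. Their 8 mature products (mmu-miR-151-5p, mmu-miR-151-3p, mmu-miR-423-5p, mmu-miR-423-3p, mmu-miR-872-5p, mmu-miR-872-3p, mmu-miR-328-5p and mmu-miR-328-3p) were taken by name from the 474 miRNAs listed in every library. These hairpins had been put forward because their 3p to 5p ratio had been compared between the diets in these same libraries. Their diet differences are therefore given as a description, with no p-value of their own. Where they fall among the calls of a fit over all hairpins or all miRNAs, that is stated beside the background and supports nothing.

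The mice lacked ApoE, a protein that clears lipoproteins from blood, and small RNA was sequenced from the vesicles that their primary hepatocytes released. The group Chow-EV came from mice on a chow diet and the group HFHC-EV from mice on the diet that the labels call HFHC, with 3 libraries each, and both groups carried the ApoE knockout. The labels number the libraries 1 to 3 as biological replicates, and the number of mice behind a library, their age and their time on the diet were not given. The p-values therefore measure the spread between these libraries only.

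Drosha and Dicer cut the hairpin, and an Argonaute protein usually retains one strand as the guide while the other, the passenger, is degraded. The 2 arms of one hairpin are transcribed together, so their ratio does not depend on how much hairpin RNA was made. Levels were in RPM, reads scaled to a common library total that was wider than the listed miRNAs. A ratio taken within one library does not depend on that total.

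The sequences of miR-423 and miR-872 show how the arms sit in their hairpins, which is what the ratios compare. They are RefSeq entries on GRCm38.p6, a build named in the submitters' processing notes, and 4 of the 8 members had an entry. In the hairpins both mature arms are in capitals, the 5p arm first. In the mature products the seed, bases 2 to 8 and the part that pairs with target RNAs, is in capitals.
miR-423 hairpin (chr11:77078064-77078172, minus strand): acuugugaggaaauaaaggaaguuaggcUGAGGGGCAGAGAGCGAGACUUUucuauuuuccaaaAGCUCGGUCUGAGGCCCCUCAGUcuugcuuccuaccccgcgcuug
miR-423-5p (chr11:77078122-77078144): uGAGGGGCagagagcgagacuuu
miR-423-3p (chr11:77078086-77078108): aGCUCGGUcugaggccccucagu
miR-872 hairpin (chr4:94665157-94665237, plus strand): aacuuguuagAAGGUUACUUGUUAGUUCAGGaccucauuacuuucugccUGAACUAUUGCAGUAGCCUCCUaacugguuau
miR-872-5p (chr4:94665167-94665187): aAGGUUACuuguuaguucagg
miR-872-3p (chr4:94665206-94665227): uGAACUAUugcaguagccuccu

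The miR-423 arms are 23 bases each with 56.5% (5p) and 65.2% (3p) G or C, and 13 bases lie between them. The miR-872 arms are poorer in G and C, 38.1% over 21 bases (5p) and 45.5% over 22 bases (3p), and 18 bases lie between them. The 5p arm of miR-423 and the 3p arm of miR-872 begin with U, and the opposite arms begin with A. No 2 of the 4 seeds are alike, and none of the other listed miRNAs with an entry (348 of 474 had one) shares a seed with them.

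In GENCODE M21 on GRCm38, Mir151 (chr15:73254815-73254882, minus strand) lies in an intron of Ptk2, the focal adhesion kinase gene, on the same strand, and also within an intron of the antisense gene 1700085D07Rik. Its nearest other protein-coding gene is Ago2, an Argonaute, 69880 bp away. Mir423 lies in an intron of Nsrp1, a nuclear speckle splicing regulator, on the same strand. Mir872 lies in an intron of Ift74, an intraflagellar transport gene, on the same strand. Mir328 (chr8:105308364-105308460, minus strand) overlaps an exon of Elmo3, an engulfment and cell motility gene, on the opposite strand. As background, miR-151 has been described in human liver cancer as acting together with its host gene in cell migration, miR-423-5p is a circulating marker of human heart failure, and human miR-328 can bind an RNA-binding protein as a decoy.

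One read was worth 0.0497 to 0.0523 RPM, so whole reads could be recovered. The libraries held 27673 to 65775 miRNA reads each, of which the 8 members made up 1.98% to 2.19% in Chow-EV and 2.49% to 3.05% in HFHC-EV. Libraries of the same number deviated from their diet means alike, so differences within a number are given beside those between diet means. Of 7 hepatocyte markers, 5 were analysed and had reads, and their summed level ran from 5.54 to 17.0 RPM over the Chow-EV libraries and from 13.5 to 27.3 RPM over the HFHC-EV libraries. These markers differed: miR-122-5p stood at 10.5 and 14.0 RPM in the libraries numbered 1 and at 0.745 to 1.086 RPM in the others. miR-192-5p stood at 4.139 to 5.785 RPM in Chow-EV and at 12.35 to 13.03 RPM in HFHC-EV. The remaining hepatocyte markers were at most 0.512 RPM. Erythroid markers (4 of 5 analysed, all with reads) summed to 113 and 148 RPM in the libraries numbered 1 and to 3.62 to 13.1 RPM in the other 4. That sum counts miR-486a-5p and miR-486b-5p separately, although their values were the same in every library. Leukocyte markers (5 of 6 analysed, all with reads) summed to 7.06 to 22.5 RPM over the Chow-EV libraries and to 7.35 to 24.9 RPM over the HFHC-EV libraries. Endothelial and mesenchymal markers (5 of 6 analysed, all with reads) summed to 1.04 to 7.68 and 3.96 to 13.2 RPM. In such bulk samples, fewer vesicles of a kind and less miRNA per vesicle cannot be told apart.

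miR-151 was mostly a 5p miRNA in both diets, and its 3p arm held a smaller share in HFHC-EV. miR-151-5p stood at 9.63, 9.05 and 9.31 RPM in Chow-EV replicates 1 to 3 and at 15.3, 15.1 and 17.2 RPM in HFHC-EV. Every HFHC-EV library was above every Chow-EV library, and the mean went from 9.33 ± 0.290 to 15.9 ± 1.12 RPM (SD, n = 3 each), a 1.70-fold difference. miR-151-3p went the other way, with 2.30, 2.29 and 2.33 RPM in Chow-EV and 1.67, 1.72 and 1.83 RPM in HFHC-EV. Its mean went from 2.31 ± 0.0211 RPM down to 1.74 ± 0.0828 RPM (SD, n = 3 each), again without overlap, from 136 and 100 reads in all.

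The ratio of miR-151-3p to miR-151-5p was 0.239, 0.253 and 0.250 in Chow-EV and 0.109, 0.114 and 0.107 in HFHC-EV. Expressed as a share of the hairpin's reads, the 3p arm held 19.3%, 20.2% and 20% in Chow-EV, with exact Clopper-Pearson 95% intervals between 14.5% and 26.0%. In HFHC-EV it held 9.82%, 10.2% and 9.64%, with intervals between 6.81% and 14.0%. The intervals of the diets did not meet. These intervals cover counting error only, because PCR reads without molecular identifiers are not independent molecules. The log2 ratio differed by −1.17 (SE 0.11) between the diets, a 2.24-fold lower 3p to 5p ratio in HFHC-EV, and by −1.13, −1.14 and −1.22 within the numbers 1 to 3.

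miR-423 was mostly a 3p miRNA, and its 3p arm held a larger share in HFHC-EV. miR-423-3p stood at 14.6, 13.8 and 17.1 RPM in Chow-EV and at 40.3, 36.9 and 40.3 RPM in HFHC-EV. The minor arm, miR-423-5p, stood at 3.12, 2.39 and 3.00 RPM in Chow-EV and at 4.02, 4.01 and 3.61 RPM in HFHC-EV. Both arms were higher in every HFHC-EV library on the RPM scale, the 3p arm 2.58-fold and the 5p arm 1.37-fold between the means.

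The 3p to 5p ratio of miR-423 was 4.69, 5.77 and 5.69 in Chow-EV and 10.03, 9.21 and 11.2 in HFHC-EV. The 3p share was 82.4%, 85.2% and 85.1% in Chow-EV and 90.9%, 90.2% and 91.8% in HFHC-EV, so the groups did not overlap. The exact 95% intervals nevertheless met, reaching up to 88.9% in Chow-EV and down to 87.9% in HFHC-EV. The log2 ratio differed by 0.92 (SE 0.16), or 1.89-fold, and by 1.10, 0.68 and 0.97 within the numbers. In miR-151 and miR-423 alike the arm that was already the major one held more of the reads in HFHC-EV.

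**Figure D1:**
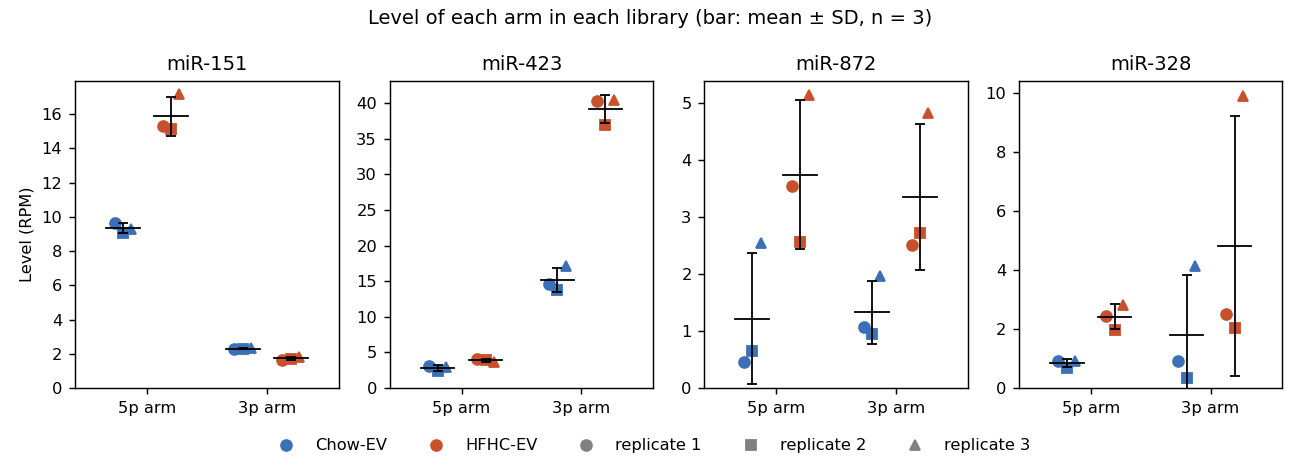
Level of the 5p and 3p arm of each hairpin in RPM, 1 point per library, coloured by diet and shaped by replicate number, with the mean ± SD of 3 libraries (a lower bar that would pass below 0 ends at the axis). miR-151-3p is the only arm whose 3 HFHC-EV libraries (1.67 to 1.83 RPM) all lie below the Chow-EV libraries, and miR-328-3p the only one whose diets overlap in RPM. For miR-872-5p, Chow-EV replicate 3 and HFHC-EV replicate 2 have 49 reads each.

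miR-872 had about as many reads from either arm, and its arm ratio did not separate the diets. miR-872-5p stood at 0.461, 0.646 and 2.54 RPM in Chow-EV and at 3.55, 2.55 and 5.13 RPM in HFHC-EV. Chow-EV replicate 3 came close to the lowest HFHC-EV library, while the other two were far below. miR-872-3p stood at 1.08, 0.944 and 1.97 RPM in Chow-EV and at 2.50, 2.71 and 4.81 RPM in HFHC-EV. In RPM both arms were higher in every HFHC-EV library than in any Chow-EV library. For miR-872-5p this rests on the library totals, since Chow-EV replicate 3 and HFHC-EV replicate 2 had 49 reads each.

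The 3p to 5p ratio of miR-872 was 2.33, 1.46 and 0.776 in Chow-EV and 0.706, 1.06 and 0.939 in HFHC-EV. Chow-EV replicate 3 lay inside the HFHC-EV range. The difference of the log2 ratio, −0.62 (SE 0.44), was about as large as the spread between libraries, and it was −1.68, −0.44 and 0.27 within the numbers, so its sign turned. The ratios of Chow-EV replicates 1 and 2 rested on 30 and 32 reads of both arms, and their 3p shares of 70% and 59.4% had intervals from 50.6% to 85.3% and from 40.6% to 76.3%.

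The 3p arm of miR-328 varied with the replicate number as well as with the diet, and its arm ratio varied with the number. miR-328-3p stood at 0.922, 0.348 and 4.14 RPM in Chow-EV and at 2.50, 2.03 and 9.89 RPM in HFHC-EV, so the libraries numbered 3 were the highest of each diet and the diets overlapped, although HFHC-EV was higher within each number. miR-328-5p stood at 0.922, 0.696 and 0.931 RPM in Chow-EV and at 2.45, 1.98 and 2.83 RPM in HFHC-EV, without overlap, and it was about even across the numbers. The 3p to 5p ratio was 1.00, 0.5 and 4.44 in Chow-EV and 1.02, 1.03 and 3.50 in HFHC-EV. The log2 ratio differed by 0.23 between the diets (SE 0.97, or 0.31 with the replicate number as a block) and by 0.03, 0.99 and −0.32 within the numbers.

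The libraries numbered 3 also held the most miRNA reads of their diet, 40223 in Chow-EV and 65775 in HFHC-EV. Their marker sums were the highest of their diet for none of the 4 marker lists: hepatocyte markers summed to 5.54 and 14.6 RPM there, erythroid markers to 3.62 and 12.8, leukocyte markers to 9.67 and 11.4, and endothelial and mesenchymal markers to 1.66 and 6.75. The marker lists do not cover every miRNA that set the libraries numbered 3 apart. For example, miR-204-5p had 597 and 1873 reads there and 1 to 15 in the others. The part of depth or of the cell types of the marker lists in the miR-328 ratio was not tested. Without both libraries numbered 3, the difference of the miR-328 log2 ratio was 0.51 and the mean log2 ratio over the libraries was −0.22, against 0.51 with them.

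**Figure D2:**
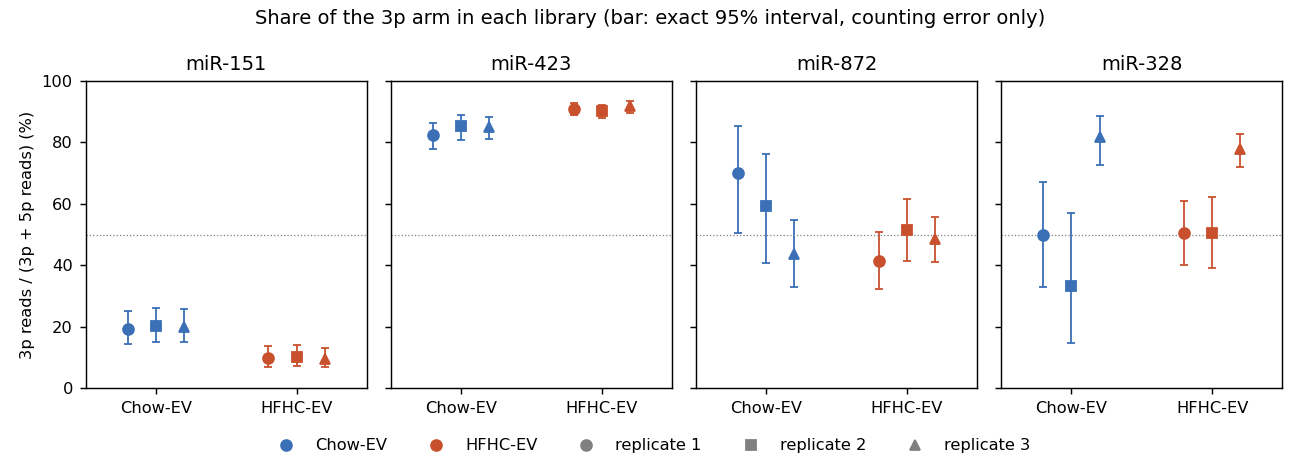
Share of the 3p arm among the reads of both arms of a hairpin, in percent, 1 point per library with its exact 95% interval (counting error only) and a dotted line at equal arms. The diets stand apart for miR-151 (19.3% to 20.2% against 9.64% to 10.2%) and miR-423 (82.4% to 85.2% against 90.2% to 91.8%), whereas the libraries numbered 3 stand apart for miR-328 (81.6% and 77.8%).

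Which arm prevailed over all 6 libraries was not the contrast that chose the members, and it was tested. The test uses the same ratios, and the same spread within a diet, as the diet difference. The small SE and p of miR-151 and miR-423 are therefore not independent of the choice. The limma fit ran over the 13 hairpins with both arms at a mean of at least 0.5 RPM, and 6 of them (46.2%) had a higher 5p arm and 4 (30.8%) a higher 3p arm at an adjusted p under 0.05. miR-151 favoured the 5p arm, with a mean log2 3p to 5p ratio of −2.59 (SE 0.06, limma adjusted p = 1.33e-06), in 6 of 6 libraries. miR-423 favoured the 3p arm, with a mean log2 ratio of 2.87 (SE 0.08, limma adjusted p = 1.88e-06), in 6 of 6 libraries. For miR-872 the mean log2 ratio was 0.14 (SE 0.22, limma adjusted p = 0.600), and the 3p arm had more reads in 3 of 6 libraries. For miR-328 it was 0.51 (SE 0.49, limma adjusted p = 0.409), with more 3p reads in 4 libraries and equal reads in 1. With the replicate number as a block the limma adjusted p was 0.0392, in a fit where 5 hairpins (38.5%) had a higher 3p arm. The block takes the variation between numbers out of the error, so that p cannot show whether the preference holds across numbers. The log2 ratio of miR-328 was 2.12 and 1.80 in the libraries numbered 3 and −0.95 to 0.04 in the others. Reads of arms with different ends can be captured with different efficiency, so these are ratios of reads.

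The spread of the arm balance among libraries of one diet was a second measure. It comes from the same ratios that the choice compared, and a ratio that stands apart between diets tends to have a small spread. A small spread of miR-151 or miR-423 is therefore not independent of the choice. Fisher's exact test on the 3p and 5p reads of the 3 libraries asked whether they differed by more than counting error, in 8 tests with Benjamini-Hochberg adjustment. It treats PCR reads as independent molecules, and separate libraries can differ by more than counting error for many reasons, so a small p sets the spread apart from counting error only. For miR-328 the spread exceeded counting error in both diets (Fisher's exact adjusted p = 1.08e-05 in Chow-EV and 4.30e-07 in HFHC-EV). For miR-872 the adjusted p came to 0.0798 for the Chow-EV libraries and to 0.579 for the HFHC-EV libraries. For miR-423 it was 0.718 in both diets and for miR-151 it was 0.978 in both. Without the libraries numbered 3, none of the 8 tests passed, with adjusted p-values of 0.869 or more, and for miR-328 they were 0.869 in Chow-EV and 1 in HFHC-EV (2-sided Fisher's exact tests; none of the 8 had an unadjusted p under 0.05).

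As a description, the chi-square of these tables per degree of freedom, which averages 1 under counting error alone, was 0.0302 and 0.0329 for miR-151 in Chow-EV and HFHC-EV. It was 0.649 and 0.623 for miR-423, 3.50 and 1.22 for miR-872, and 12.6 and 16.7 for miR-328. Of the 12 hairpins for which it could be computed, miR-151 had the lowest value in both diets. miR-342 was the other hairpin besides miR-151 and miR-423 that stayed under 1 in both diets (0.180 and 0.520), and miR-23a, miR-31 and miR-23b were above miR-328.

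**Figure D3:**
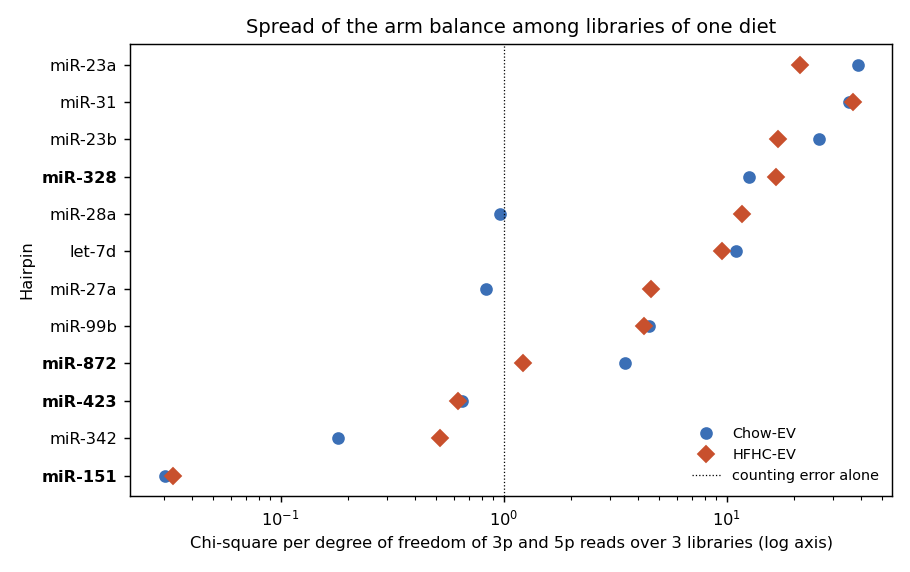
Chi-square per degree of freedom of the 3p and 5p reads over the 3 libraries of a diet, on a log axis, for 12 hairpins, with a dotted line at the value that counting error alone gives on average. miR-151 (0.0302 and 0.0329) and miR-423 (0.649 and 0.623) lie left of the line and miR-328 (12.6 and 16.7) far right of it.

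Set among all 13 hairpins, the ratio was higher in HFHC-EV for 2 and lower for 2 in the limma fit (15.4% each at an adjusted p under 0.05), and the libraries of the diets did not overlap for the same numbers (15.4% each). miR-423 was one of the higher and miR-151 one of the lower hairpins in both counts. Since these ratios chose the members, nothing is read from that. The others were miR-28a, higher, and miR-27a, lower, and each of them has a minor arm that averaged under 0.5 RPM in Chow-EV and met the minimum only through HFHC-EV. The direction of these other calls, which make up 1 of the 2 in each count, was therefore partly fixed by the filter. With the replicate block 4 hairpins were higher (30.8%) and 3 lower (23.1%), and miR-151 and miR-423 were again the members among them, while miR-872 and miR-328 were not. Without single libraries, the higher hairpins numbered 0 (Chow-EV replicate 1 or HFHC-EV replicate 1 left out, with 2 at an unadjusted p under 0.05 in limma) or 1 (Chow-EV replicate 2 or 3, or HFHC-EV replicate 2), and the lower ones 1 (replicate 1 or 2 of either diet). When the libraries numbered 1, or those numbered 2, were left out of both diets, limma called 0 hairpins (at an unadjusted p under 0.05, 1 higher and 1 lower in either case). Leaving out those numbered 3 gave 4 higher and 3 lower.

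miR-28a is a relative of miR-151 in sequence, and its values are given without a statement on its ratio, since the Chow-EV ratio rests on 2 reads of the 3p arm in all and on the 0.025 RPM added to each arm before the log. miR-28a-3p averaged 0.0337 RPM in Chow-EV and 1.13 RPM in HFHC-EV. It had 1, 1 and 0 reads in Chow-EV and 30, 18 and 17 in HFHC-EV, while miR-28a-5p had 13, 17 and 29 reads and 8, 16 and 42. miR-27a, of the miR-23/27/24 clusters, had 1, 0 and 24 reads of its 5p arm in Chow-EV and 12, 11 and 56 in HFHC-EV, against 37 to 1061 and 130 to 1537 reads of its 3p arm. Of the other fixed relatives, miR-708-5p was listed at 0 in all 6 libraries, and miR-320-3p, which is made without Drosha cleavage, averaged 0.395 ± 0.415 RPM on chow and 1.62 ± 0.185 RPM on HFHC (SD, n = 3 each). With the major arm set by the sign of the mean log2 ratio, the ratio moved towards that arm in HFHC-EV for 7 of the 13 hairpins and away for 6. For miR-384, miR-872 and miR-328 that mean was 0.0023, 0.14 and 0.51 (limma adjusted p = 0.979, 0.600 and 0.409). Their major arm is thus not settled, and nothing is read from the split.

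**Figure D4:**
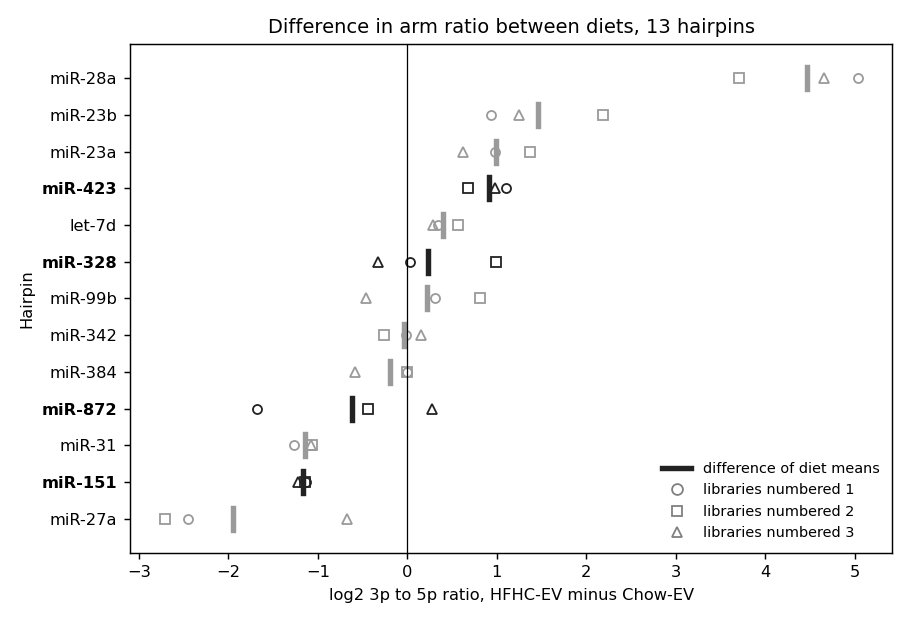
Difference between HFHC-EV and Chow-EV of the log2 3p to 5p ratio for 13 hairpins, members in bold and black, with a bar at the difference of diet means and an open symbol for each pair of libraries with the same number. The 3 symbols lie close together for miR-151 (−1.13 to −1.22) and on both sides of 0 for miR-328 (−0.32 to 0.99) and miR-872 (−1.68 to 0.27).

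By the course of the ratio over the 6 libraries, each centred on its mean, the hairpins most like miR-423 were let-7d (root mean square difference 0.34 on the log2 scale) and miR-342 (0.52). Those most like miR-328 were miR-23a (0.54) and miR-23b (0.64), whose ratios were also highest in the libraries numbered 3. Those most like miR-151 were miR-384 (0.50), which had reads only in the libraries numbered 3, and miR-872 (0.56). In the other libraries the log2 ratio of miR-384 was set to 0 by the 0.025 RPM added to each arm, so its likeness to miR-151 is not one of measured ratios. The hairpins most like miR-872 were miR-151 (0.56) and miR-342 (0.57). Being nearest does not mean a shared course, since a ratio that hardly moves can also lie near. Between the diets the log2 ratio of miR-342 differed by −0.04, against 0.92 for miR-423 and −0.62 for miR-872. That of miR-151 differed by −1.17. The 3p share of let-7d was 12.3%, 11.0% and 16.6% in Chow-EV and 15.1%, 15.5% and 19.5% in HFHC-EV, so that its diets overlapped where those of miR-423 did not.

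The diet difference of single arms depends on how libraries are scaled to each other, unlike the ratios. All 8 members were among the 104 miRNAs that averaged 1 RPM or more, although miR-328-5p, at a mean of 0.850 RPM in Chow-EV, was so only through HFHC-EV. On log2(RPM + 1), which understates changes of low miRNAs, the log2 fold change was 1.32 (SE 0.12) for miR-423-3p, 1.18 (SE 0.42) for miR-872-5p, 1.04 (SE 0.73) for miR-328-3p and 0.89 (SE 0.28) for miR-872-3p. It was 0.88 (SE 0.15) for miR-328-5p, 0.71 (SE 0.11) for miR-151-5p, 0.35 (SE 0.14) for miR-423-5p and −0.27 (SE 0.11) for miR-151-3p. The median over the 104 miRNAs was 0.51. Relative to that shift the minor arms of miR-151 and miR-423 lay below the general level. The other members lay above it, from miR-151-5p (0.71) up to miR-423-3p (1.32).

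After TMM scaling, where that median was −0.0053, the log2 fold change was 0.61 for miR-423-3p, −0.22 for miR-423-5p, 0.02 for miR-151-5p and −0.78 for miR-151-3p. The sign of miR-423-5p thus turned with the scaling, as it did with RLE scaling (−0.06), and miR-151-5p came close to no difference. After TMM scaling the arms of miR-872 stood at 0.75 (5p) and 0.41 (3p) and those of miR-328 at 0.45 (5p) and 0.59 (3p).

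In the limma fit on RPM 25 of the 104 miRNAs were called higher (24%) and 5 lower (4.81%) in HFHC-EV, among them 3 members, all higher: miR-151-5p, miR-423-3p and miR-328-5p. Leaving out Chow-EV replicate 2 left 13 higher calls, HFHC-EV replicate 3 left 15, and Chow-EV replicate 1, HFHC-EV replicate 1 or HFHC-EV replicate 2 left 16 each. With number 1 or number 2 left out of both diets, limma called 0 higher (21 and 19 at an unadjusted p under 0.05), and with number 3 left out it called 40. The libraries of the diets did not overlap for 44 miRNAs that were higher (42.3%) and 7 that were lower (6.73%), against 6 members higher and 1 lower. One of the 6, miR-872-5p, had equal reads in Chow-EV replicate 3 and HFHC-EV replicate 2 and was separate only through the library totals. After TMM scaling 4 miRNAs were higher (3.85%) and 7 lower (6.73%), with miR-423-3p as the 1 member. The edgeR test on recovered reads called 1 higher (0.962%) and 5 lower (4.81%), with no member. At an unadjusted p under 0.05 it had 22 of the 104 miRNAs, among them 3 members (miR-151-3p, miR-423-3p and miR-328-5p). With the replicate block, 69 were higher (66.3%) and 8 lower (7.69%) in RPM, including 7 members higher, all but miR-151-3p. With the block and TMM scaling 29 were higher (27.9%) and 26 lower (25%), including 5 members higher (miR-423-3p and both arms of miR-872 and miR-328) and miR-151-3p lower. The members were chosen on this contrast, and nothing is read from these counts.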

How the data were processed

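Per the labels' protocols, a gel slice of 18 to 30 nt RNA was used for adapter ligation, cDNA synthesis and PCR. Bowtie2 and GRCm38.p6 come from the submitters' processing notes; versions, the miRNA annotation, and how multi-matching reads and PCR duplicates were handled are not given in the sources. The deposited values are RPM, 1 table per library, summing to 1375 to 3441, and what the authors counted in the per-library total is not stated. Values under 2 RPM were whole multiples of 1 step (100% within 0.1 of a read), which gave totals of 19114800 to 20122500 reads; with that step 100% of all values came out whole.

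Levels were tested with limma-trend (limma 3.58.1, R 4.3.3) on log2(RPM + 1) for miRNAs averaging 1 RPM or more, and with edgeR 4.0.16 on recovered reads. Ratios were tested with limma on log2 of 3p over 5p, 0.025 RPM (about 0.5 reads) added to each arm, for hairpins with both arms averaging 0.5 RPM or more. Diet was the only term, so the standard errors ignore the pairing by replicate number unless the block is named. Benjamini-Hochberg adjustment was used at 0.05. With 13 hairpins the pooled variance of the ratio fit is rough. Fisher's exact test was applied to recovered reads, and shares have exact Clopper-Pearson 95% intervals (scipy 1.17.1).

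The members and lists were chosen with earlier results of these data known. Named beside the members were, for each hairpin, the 2 with the most alike ratio over the libraries, other hairpins whose ratios did not overlap between diets, miRNAs sharing a seed, and relatives of miR-151 with miR-320-3p. Deviations from the diet means over 104 miRNAs correlated at 0.945, 0.894 and 0.946 for the same replicate number and at −0.819 to 0.0265 otherwise, so the numbers pair the samples, although no label says what they mark. edgeR and the block with TMM scaling were added after seeing the data.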

Additional observations from a re-analysis of the deposited data

How the results depend on the processing

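The difference of the log2 3p to 5p ratio kept its sign for miR-151, miR-423 and miR-872 under every alternative run. Without single libraries or both of one number, it ranged from −1.19 to −1.14 for miR-151 and from 0.82 to 1.04 for miR-423, while for miR-872 it ranged from −1.06 to −0.086. For miR-328 it ranged from −0.44 to 1.10 without single libraries, and it was −0.15 without both libraries numbered 2. A pseudocount of 1 RPM gave −0.98 for miR-151 and −0.29 for miR-872. The mean log2 ratio of miR-872 ranged from −0.042 to 0.34 without single libraries, and that of miR-328 was −0.22 without both libraries numbered 3.

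Hairpins with a changed ratio numbered 1 higher and 1 lower with pseudocounts of 0.1 or 1 RPM, without a pseudocount (9 hairpins) or with both arms at 2 RPM (6 hairpins), 1 and 5 with both arms at 0.1 RPM (30 hairpins), and 4 and 3 with the replicate block. They ranged from 0 to 2 higher and 1 to 2 lower without single libraries, and from 0 to 4 and 0 to 3 without both of one number. Arm preference held for 7 (3p) and 16 (5p) hairpins at 0.1 RPM and 2 and 3 at 2 RPM, filters that change how many hairpins are tested. Fisher's tests that passed numbered 0 without both libraries numbered 3 and 2 otherwise.

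miRNAs called higher and lower numbered 4 and 7 with TMM scaling, 3 and 6 with RLE, 60 and 22 without a filter, 69 and 8 with the replicate block, 29 and 26 with the block and TMM, 1 and 5 in edgeR and 25 and 20 in edgeR with the block. Without single libraries, 13 to 32 were higher and 4 lower; without both of one number, 0 to 40 and 0 to 5. miR-423-5p had a log2 fold change of −0.22 with TMM (with or without the block), −0.058 with RLE, and −0.17 and −0.19 in edgeR without and with the block. The causes were not tested. The ratios of miR-872 and miR-328 rest on 21 to 243 reads of both arms per library, and counting error is wide where the reads are few.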
